A study of Mus musculus with 4 samples.

Results

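The genes described here number 9, and their proteins carry out or trigger 3 forms of regulated cell death, namely necroptosis, pyroptosis and apoptosis, in bulk mRNA-seq of injured mouse liver. They were taken by gene name from the deposited table, and all 9 names were found among its 13903 genes: Fas, Casp8, Ripk1, Ripk3, Mlkl, Zbp1, Casp1, Gsdmd and Bcl2l11. All mice were OGT-floxed on the C57BL/6J background and ate the CDE diet, deficient in choline and supplemented with ethionine, a diet that injures hepatocytes and provokes a ductular and inflammatory response. Under the label OGT-KO the mice were given AAV8-TBG-CRE, a virus that expresses Cre recombinase from a hepatocyte promoter, so other liver cells keep the gene for O-GlcNAc transferase (Ogt). Under the label control they were given AAV8-TBG-eGFP instead. Livers were collected either with no recovery from the diet or 7 days into recovery. RNA of 3 mice was pooled in equal parts for each of the 4 conditions and sequenced as 1 library, so no value below has a replicate error and no test between conditions was run. Age and sex are not given in the sources used here, and no group on a normal diet is among these samples.

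Death receptors such as FAS assemble caspase-8, which starts apoptosis and also cuts the kinases RIPK1 and RIPK3. Where caspase-8 is not active, RIPK1 or the nucleic acid sensor ZBP1 can engage RIPK3 through a shared interaction motif. RIPK3 then phosphorylates MLKL, which breaks the plasma membrane (necroptosis). In pyroptosis, caspase-1 is activated in inflammasomes and cuts gasdermin D into a pore-forming fragment, while BIM, the product of Bcl2l11, starts the mitochondrial path to apoptosis. Hepatocytes are known for a strong reliance on the FAS and mitochondrial paths, and RIPK3 and caspase-1 are typically found in the liver's macrophages and other immune cells.

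The values are CPM, that is, a gene's reads scaled so that each library's listed genes sum to 1000000. Library totals, recovered from the values, were 19972699 to 22866431 reads, and 3 reads correspond to 0.131 to 0.150 CPM. With no recovery Ogt, a check of the labels, was at 55.3 CPM under the label OGT-KO and 64.7 CPM under the label control, and after 7 days at 77.7 and 55.7 CPM. Ogt was thus higher under the label OGT-KO at the later time, against that label, though with median-ratio scaling its log2 difference was negative at both times (-0.93 and -0.20). Every direction below is a direction between libraries as labelled. Hepatocyte markers summed to 49955 to 77687 CPM and macrophage and monocyte markers to 84.2 to 909 CPM, so RNA of both cell types was measured in every library. Differences are given as differences of log2(CPM + 1), which understates the change of low genes, and a gene was called higher or lower at a difference of at least 2-fold on this scale. Of the 13903 genes, 12989 averaged 1 CPM or more over the libraries and serve as background, and all 9 members were among them. This mean is over all libraries, so a gene can pass through the label where it is high, as Ripk3 did. Most genes lay above 0 between the labels: the median log2 difference over the background was 0.64 with no recovery and 0.61 after 7 days. With median-ratio scaling in place of equal totals these medians were -0.02 and -0.03. A member's difference is therefore also given less the background median.

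With no recovery, 5 of the 9 members were at least 2-fold higher in the OGT-KO-labelled library (Mlkl, Bcl2l11, Ripk3, Casp1 and Zbp1), 0 were at least 2-fold lower, and Fas, Casp8, Ripk1 and Gsdmd lay within 2-fold. In the background, 33.5% of genes were called higher and 4.6% lower. After 7 days, 4 of the 9 were called higher (Mlkl, Bcl2l11, Ripk3 and Casp1) and 0 lower, against 32.7% and 3.5% of the background. The median log2 difference of the members was 1.17 and 0.98, beside 0.64 and 0.61 for all genes. Both OGT-KO-labelled libraries lay above both control-labelled libraries for 6 members and below them for 1, Gsdmd, while Casp8 and Ripk1 overlapped. Of the background, 73.7% of genes lay above and 13.5% below in this way. With a gap of at least 2-fold between the nearest libraries, 3 members lay above (Mlkl, Bcl2l11 and Ripk3), against 25.4% of the background. These shares hold for the deposited scaling. With median-ratio scaling 5 members lay above and 4 below, and no background share was computed for that scaling. In bulk RNA, fewer cells of a type and less RNA per cell cannot be told apart. The call counts depend on the scaling. With median-ratio scaling and no recovery, 2 members (Mlkl and Bcl2l11) were called higher and 0 lower, against 17.7% and 12.4% of the background. After 7 days 3 were called higher (Mlkl, Bcl2l11 and Ripk3) and 1 lower (Gsdmd), against 20.4% and 9.5% under that scaling.

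**Figure D1:**
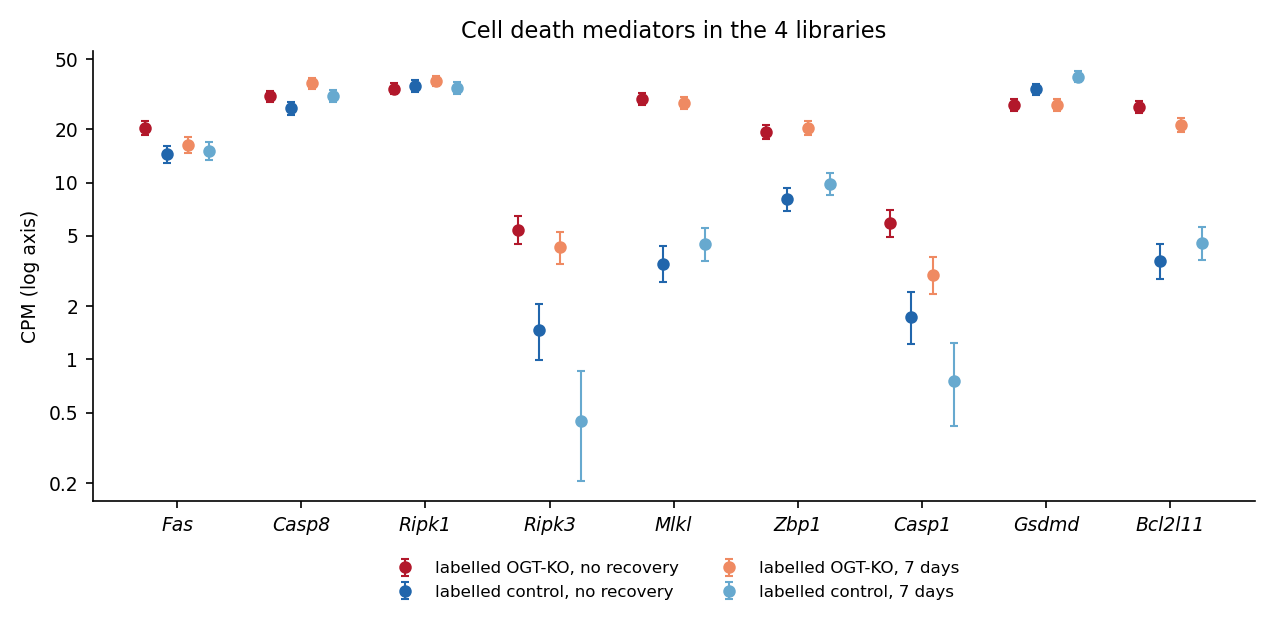
CPM of the 9 members (log axis) in the 4 libraries, 1 point per library of pooled RNA, with bars for the exact Poisson 95% counting interval. The points labelled OGT-KO and control lie at least 2-fold apart for Mlkl, Bcl2l11 and Ripk3, less far but without overlap for Zbp1 and Casp1, and close together for Fas, Casp8 and Ripk1, while Gsdmd is lower in both OGT-KO-labelled libraries.

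Fas (ENSMUSG00000024778) encodes the death receptor for FAS ligand. It had 20.5 CPM in the OGT-KO-labelled library and 14.5 in the control-labelled library with no recovery, and 16.4 and 15.1 CPM after 7 days. Both OGT-KO-labelled libraries were above both labelled control, by a narrow margin at 7 days. The CPM ratio between the labels was 1.41 with no recovery (95% interval 1.22 to 1.64, exact, for counting error only) and 1.08 after 7 days (0.926 to 1.26). On the log2 scale the difference was 0.47 and 0.11, and less the background median it was -0.17 and -0.50, so the direction of Fas turned with the scaling (-0.21 and -0.54 with median-ratio scaling).

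Casp8 (ENSMUSG00000026029) encodes the caspase that FAS recruits. It had 30.8 and 26.3 CPM with no recovery in the OGT-KO-labelled and control-labelled libraries, and 36.5 and 31.0 CPM after 7 days. The labels overlapped, since the control-labelled library after 7 days lay just above the OGT-KO-labelled library with no recovery. The CPM ratio was 1.17 with no recovery (1.05 to 1.31) and 1.18 after 7 days (1.06 to 1.31). Its log2 difference of 0.22 and 0.23 was below the background median, and it turned to -0.48 and -0.44 with median-ratio scaling.

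Ripk1 (ENSMUSG00000021408) encodes the kinase and scaffold that joins death receptor signalling to cell survival, apoptosis or necroptosis. Its level had the narrowest spread of the 9, with 34.1 and 35.2 CPM with no recovery in the OGT-KO-labelled and control-labelled libraries, and 37.6 and 34.4 CPM after 7 days. The highest library was 1.10 times the lowest. The CPM ratio between the labels was 0.967 with no recovery (0.873 to 1.07) and 1.09 after 7 days (0.987 to 1.21), and both counting intervals held 1. Less the background median, the log2 difference was -0.69 and -0.48. In the GENCODE M21 annotation (GRCm38), Ripk1 shares 241 of its 8344 exonic bases with Serpinb6a on the opposite strand. It shares 511 with the processed pseudogene Gm17084 on the same strand. The counting is not stated to use strand, which would separate only the bases of Serpinb6a. A part of the reads of Ripk1 could therefore belong to these genes.

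Ripk3 (ENSMUSG00000022221) encodes the kinase that activates MLKL. It had few reads, with 5.42 CPM in the OGT-KO-labelled library with no recovery (124 reads) and 4.30 after 7 days (97 reads), against 1.46 (31 reads) and 0.451 CPM (9 reads) in the control-labelled libraries. Both OGT-KO-labelled libraries were at least 2-fold above both labelled control. The CPM ratio was 3.72 with no recovery (2.49 to 5.71) and 9.54 after 7 days (4.82 to 21.5). The later ratio rests on the 9 reads of the control-labelled library. The log2 difference was 1.39 and 1.87, or 0.74 and 1.26 less the background median, and 0.86 and 1.49 with median-ratio scaling.

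Mlkl (ENSMUSG00000012519), the executioner of necroptosis, had the largest log2 difference between the labels among the 9. It had 29.7 CPM in the OGT-KO-labelled library with no recovery and 28.1 after 7 days, against 3.48 and 4.51 CPM in the control-labelled libraries. The libraries of a label lay close together and the labels far apart. The CPM ratio was 8.52 with no recovery (6.69 to 11) and 6.24 after 7 days (5.0 to 7.88). The log2 difference of 2.77 and 2.40 was above that of 96.3% and 91.5% of the background genes, and it was 2.14 and 1.79 with median-ratio scaling. Measured within each library, which no scaling alters, Mlkl had 87.0 reads per 100 reads of Ripk1 in the OGT-KO-labelled library with no recovery and 74.9 after 7 days, against 9.88 and 13.1 in the control-labelled libraries. For Ripk3 the same ratio to Ripk1 was 15.9 and 11.4 against 4.14 and 1.31. Ripk1 was nearly level between the labels in deposited CPM, so these ratios largely restate the CPM ratios and add no separate support. Less the background median, Ripk1 itself lay at -0.69 and -0.48. These ratios were chosen after the values were seen, and no correction for gene length was made, so they compare libraries and not genes.

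Zbp1 (ENSMUSG00000027514) encodes the Z-nucleic acid sensor that can engage RIPK3 without death receptors, and is induced by interferon. It had 19.4 and 8.04 CPM with no recovery in the OGT-KO-labelled and control-labelled libraries, and 20.5 and 9.86 CPM after 7 days. Both OGT-KO-labelled libraries lay above both labelled control. Between the labels the CPM ratio was 2.41 (2.02 to 2.90) and 2.08 (1.75 to 2.46). On the log2(CPM + 1) scale the difference was 1.17 and 0.98, so Zbp1 passed the 2-fold limit with no recovery and just missed it after 7 days. Less the background median it was 0.53 and 0.38, larger than in 72.5% and 66.8% of the genes.

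Casp1 (ENSMUSG00000025888) encodes the inflammasome caspase. It too had few reads, with 5.90 CPM (135 reads) in the OGT-KO-labelled library with no recovery and 3.01 (68 reads) after 7 days, against 1.74 (37 reads) and 0.751 CPM (15 reads) in the control-labelled libraries. The labels did not overlap, and under each label the library after 7 days was the lower one. In CPM the ratio was 3.39 (2.34 to 5.02) and 4.01 (2.27 to 7.56). The log2 difference was 1.33 and 1.20, or 0.69 and 0.59 less the background median. Median-ratio scaling gave 0.79 and 0.80, under the 2-fold limit.

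Gsdmd (ENSMUSG00000022575), which encodes the pore-forming substrate of caspase-1, ran the other way. It had 27.4 CPM in the OGT-KO-labelled library with no recovery and 27.5 after 7 days, against 33.7 and 39.8 CPM in the control-labelled libraries. At the deposited scaling it was the single member with both OGT-KO-labelled libraries below both labelled control. With upper-quartile scaling 2 members lay so and with median-ratio scaling 4, and no background share was computed for either. The CPM ratio of Gsdmd was 0.812 (0.728 to 0.905) and 0.690 (0.620 to 0.768). The log2 difference of -0.29 and -0.52 lay within 2-fold, and less the background median it was -0.94 and -1.12, with 13.1% and 6.99% of the genes further below. With median-ratio scaling it was -0.99 and -1.18, past the 2-fold limit after 7 days.

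Bcl2l11 (ENSMUSG00000027381) encodes BIM, a BH3-only protein that neutralises BCL2, BCL-XL and MCL1. It had 26.9 CPM in the OGT-KO-labelled library with no recovery and 21.2 after 7 days, against 3.62 and 4.56 CPM in the control-labelled libraries. Its log2 difference was second to that of Mlkl, and both OGT-KO-labelled libraries were more than 2-fold above both labelled control. The CPM ratio was 7.43 (5.85 to 9.54) and 4.65 (3.71 to 5.88). The log2 difference was 2.59 and 2.00, or 1.95 and 1.39 less the background median, and 1.95 and 1.39 with median-ratio scaling.

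**Figure D2:**
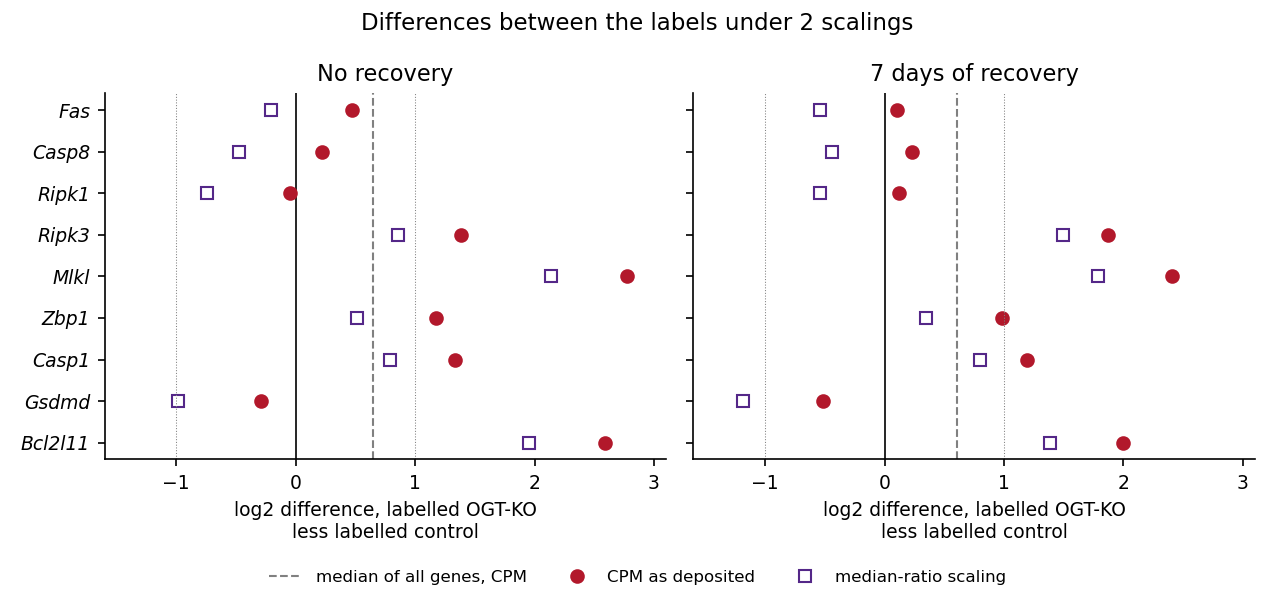
Difference of log2(CPM + 1) between the OGT-KO-labelled library and the control-labelled library for each member, with no recovery (left) and after 7 days (right), for the deposited CPM (filled) and median-ratio scaling (open). The dashed line is the median of all background genes (0.64 and 0.61) and dotted lines mark 2-fold. Mlkl and Bcl2l11 lie right of the 2-fold line under both scalings, and Fas and Casp8 change side with the scaling at both time points, as Ripk1 does after 7 days.

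Upstream sequence was looked at for the pair that differed most (Mlkl and Bcl2l11) and for the members that hold a searched motif. Windows of 250 bases before a RefSeq transcription start (GRCm38.p6) were found for 7 of the 9 members, in 9 windows. None was available for Zbp1 or Gsdmd, so their upstream sequence was not searched. Searched on both strands were the core of the interferon-stimulated response element, the gamma-activated site TTCNNNGAA and a kappa B site, whose matches may overlap. The gamma-activated site letters were found in 2 of the 9 windows, upstream of Fas and of the second start of Ripk1, and the other motifs in 0. Of all 32851 windows of this length, 7.02% hold the gamma-activated site letters, 2.98% the response element core and 0.356% the kappa B site. The windows printed lie at chr8:111338206-111338455 (minus strand, Mlkl), chr2:128125788-128126037 (plus strand, the first of the 2 starts of Bcl2l11), chr19:34290409-34290658 (plus strand, Fas) and chr13:34002624-34002873 (plus strand, Ripk1). Each reads 5′ to 3′ toward the start, with matched letters in capitals.
Mlkl: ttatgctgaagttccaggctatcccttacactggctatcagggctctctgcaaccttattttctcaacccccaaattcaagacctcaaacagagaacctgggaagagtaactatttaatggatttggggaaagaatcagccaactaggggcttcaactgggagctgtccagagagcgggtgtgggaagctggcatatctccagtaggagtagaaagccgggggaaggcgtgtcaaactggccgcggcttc
Bcl2l11: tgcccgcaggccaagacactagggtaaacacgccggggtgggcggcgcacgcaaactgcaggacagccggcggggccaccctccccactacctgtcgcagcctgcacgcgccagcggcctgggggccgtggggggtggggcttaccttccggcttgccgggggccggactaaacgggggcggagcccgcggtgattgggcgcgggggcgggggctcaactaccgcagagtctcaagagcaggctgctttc
Fas: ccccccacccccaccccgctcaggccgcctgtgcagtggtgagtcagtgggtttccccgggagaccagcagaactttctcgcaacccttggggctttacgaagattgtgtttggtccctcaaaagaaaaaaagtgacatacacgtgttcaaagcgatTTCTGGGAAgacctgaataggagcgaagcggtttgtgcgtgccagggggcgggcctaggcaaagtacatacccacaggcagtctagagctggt
Ripk1: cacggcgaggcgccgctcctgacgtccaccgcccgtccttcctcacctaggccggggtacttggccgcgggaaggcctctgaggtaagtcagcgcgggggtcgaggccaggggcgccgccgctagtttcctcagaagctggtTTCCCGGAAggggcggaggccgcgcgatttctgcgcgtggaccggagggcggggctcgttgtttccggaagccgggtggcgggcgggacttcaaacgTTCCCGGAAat
The match in Fas spans bases 93 to 85 before the start, and those in Ripk1 span bases 108 to 100 and 11 to 3. The windows of Mlkl and Bcl2l11 hold none of the 3 motifs. A match is a description of letters and not a measured site.

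From no recovery to 7 days, 0 of the 9 members differed by 2-fold in either direction on the log2(CPM + 1) scale in the control-labelled libraries, where 0.239% of the background was called higher and 1.02% lower, and 0 of 9 in the OGT-KO-labelled libraries (1.31% and 0.708%). The median log2 difference of the members was 0.23 in the control-labelled libraries and -0.07 in the OGT-KO-labelled libraries, beside -0.05 and -0.02 for all genes. The largest differences, in ratios of CPM with no pseudocount, were those of Ripk3 and Casp1, members with few reads. Casp1 was lower after recovery in both, with a CPM ratio of 0.431 in the control-labelled libraries (0.220 to 0.805) and 0.510 in the OGT-KO-labelled libraries (0.376 to 0.688). Ripk3 had a ratio of 0.309 in the control-labelled libraries (0.129 to 0.665) and 0.793 in the OGT-KO-labelled libraries (0.601 to 1.04), of which the first rests on 9 and 31 reads. Casp8 was higher after recovery by a like amount in both, with ratios of 1.18 (1.05 to 1.33) and 1.19 (1.07 to 1.31). Gsdmd had a ratio of 1.18 in the control-labelled libraries (1.07 to 1.31) and 1.0 in the OGT-KO-labelled libraries (0.897 to 1.12). Bcl2l11 had 1.26 in the control-labelled libraries (0.918 to 1.73) and 0.788 in the OGT-KO-labelled libraries (0.697 to 0.889), and Fas 1.04 (0.887 to 1.23) and 0.799 (0.695 to 0.918). The intervals of Ripk1, Mlkl and Zbp1 held 1 in both.

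**Figure D3:**
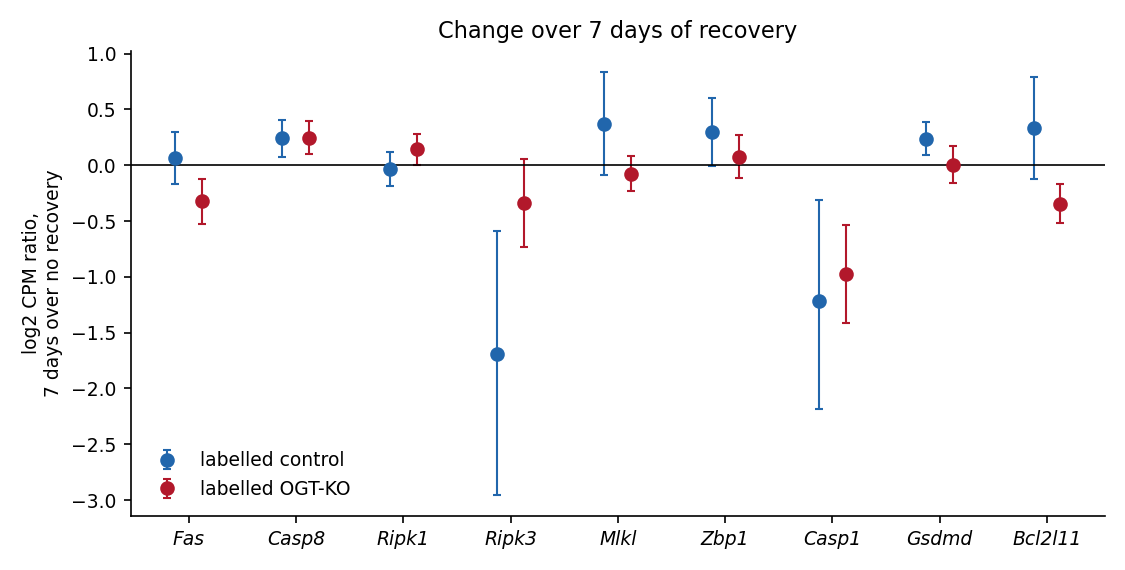
Log2 ratio of CPM after 7 days over no recovery for each member in the control-labelled libraries (blue) and the OGT-KO-labelled ones (red), without a pseudocount, with bars for the exact 95% counting interval. Casp1 lies below 0 in both, Casp8 above 0 in both, and Ripk3 has the widest interval, resting on 9 and 31 reads in the control-labelled libraries.

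The difference between the labels was also set against time. The log2 difference after 7 days less that with no recovery had a size of at least 2-fold for 0 of the 9 members, against 3.55% of the background. It was largest for Bcl2l11 (-0.60, larger in size than for 85.3% of the genes) and Ripk3 (0.48, 78.5%). Casp8 was the least different (0.01). The 2 comparisons between the labels use separate libraries and the 2 comparisons over time use the same 4, so the values above are not 4 independent readings.

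Other genes of the pathways came from lists written with earlier results of these data known. Of the 28 genes listed for death receptor signalling and necroptosis, 27 were in the table and all 27 had a mean of at least 1 CPM. Of these, 8 were called higher with no recovery and 7 after 7 days, where 33.5% and 32.7% of all genes were, and 0 lower at either time. The median log2 difference was 0.63 and 0.55, close to the 0.64 and 0.61 of all genes. Under median-ratio scaling this list's median was -0.08 and -0.10. Tnfrsf10b, a death receptor for TRAIL, differed most, with 25.9 CPM in the OGT-KO-labelled library against 0.612 in the control-labelled library with no recovery and 13.2 against 0.350 after 7 days. Tnf had 3.28 and 3.01 CPM in the OGT-KO-labelled libraries and 0.141 and 0 in the control-labelled libraries, the last 2 at or under 3 reads. Tlr3, a sensor of double-stranded RNA, had a log2 difference of 1.37 and 1.40 (0.74 and 0.78 under median-ratio scaling). Adaptors and inhibitors that bind the members directly varied. Fadd was at -0.07 and -0.06 (-0.72 and -0.69 with median-ratio scaling), and Tradd at 0.43 and 0.02 (-0.24 and -0.63). Cflar, the inhibitor of caspase-8, was at -0.41 and -0.12, and under median-ratio scaling at -1.12 and -0.79, past 2-fold with no recovery. Cyld was at -0.30 and -0.16 (-0.99 and -0.81 under that scaling). Birc2 and Birc3, ubiquitin ligases that restrain RIPK1, lay above 0, Birc2 at 1.17 and 0.77 (0.48 and 0.11) and Birc3 at 0.99 and 1.12 (0.33 and 0.48), within 2-fold under that scaling. Tnfaip3, the A20 deubiquitinase, had 13.9 and 12.8 CPM in the OGT-KO-labelled libraries and 11.8 and 1.40 CPM in the control-labelled libraries, so its log2 difference went from 0.21 with no recovery to 2.52 after 7 days (-0.45 and 2.01 with median-ratio scaling). Fasl, which encodes FAS ligand, was the listed gene not found by name in the table, so it has no value here.

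The inflammasome and pyroptosis list stood further above the background than the others of cell death. Of its 22 genes, 20 were in the table with a mean of at least 1 CPM, 14 of 20 were called higher and 1 lower at each time, against 33.5% and 32.7% of all genes called higher and 4.6% and 3.5% lower. Among those called higher, Nlrp1b, Aim2, Naip6, Mefv and Il1b were under 1 CPM in both control-labelled libraries. They passed the filter only through the OGT-KO-labelled libraries, where they are high, so the count of 14 leans on that filter. The list's median was 1.26 and 1.48, beside 0.64 and 0.61 for all genes, and 0.75 and 0.97 under median-ratio scaling. Pycard, the adaptor that recruits caspase-1, had 6.08 and 6.78 CPM in the OGT-KO-labelled libraries and 1.18 and 0.751 in the control-labelled libraries. Nlrp3 was at a log2 difference of 1.27 and 1.59, and Casp4, the caspase that senses cytosolic lipopolysaccharide, at 1.33 and 1.75. Under median-ratio scaling Nlrp3 was at 0.79 and 1.21 and Casp4 at 0.77 and 1.25. Il1b had 8.27 and 5.58 CPM in the OGT-KO-labelled libraries and 0.847 and 0.751 CPM in the control-labelled libraries. Il1rn, the interleukin-1 receptor antagonist, differed most (3.79 and 3.46), followed by Naip2 (3.06 and 2.41), whose reads may be shared with its close paralogs. Il18 ran the other way at -0.47 and -0.45. The called lower gene, named after its values were seen, was Nlrp6, with 49.6 and 73.4 CPM in the OGT-KO-labelled libraries and 241 and 199 CPM in the control-labelled libraries.

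Of the 30 genes of mitochondrial apoptosis, 27 had a mean of at least 1 CPM, 10 were called higher with no recovery and 9 after 7 days, where 33.5% and 32.7% of all genes were, and 0 lower, with a median of 0.68 and 0.63 near the background's (-0.03 and -0.05 with median-ratio scaling). Among survival proteins that BIM binds, Bcl2l1 (BCL-XL) had 117 and 79.7 CPM in the OGT-KO-labelled libraries and 38.7 and 35.1 in the control-labelled libraries. Mcl1 had 265 and 204 CPM against 121 and 132, a log2 difference of 1.13 and 0.63 that was 0.41 and -0.05 with median-ratio scaling, and Bcl2 had 10.8 and 10.6 CPM against 2.40 and 0.551. The log2 difference of Bcl2l1, 1.57 and 1.16, was 0.86 and 0.49 under median-ratio scaling, within 2-fold. Bcl2l2 (BCL-W), named after its values were seen, was at 0.18 and 0.22, and at -0.51 and -0.44 under that scaling. Per 100 reads of Bcl2l1, Bcl2l11 had 23.0 and 26.6 reads in the OGT-KO-labelled libraries and 9.36 and 13.0 in the control-labelled libraries, so the ratio was higher in both OGT-KO-labelled libraries. Apaf1, the apoptosome scaffold, differed most (3.41 and 2.84), and Bax, a pore-forming effector, was at 2.18 and 1.62. Bak1 was at 0.96 and 0.93 and Bid, which caspase-8 cuts, at 0.42 and -0.04 (-0.27 and -0.69 with median-ratio scaling). Pmaip1 (NOXA), a p53 target, had 6.17 and 3.28 CPM in the OGT-KO-labelled libraries and 0.894 and 0.150 CPM in the control-labelled libraries.

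Interferon-stimulated genes were listed because Zbp1, Mlkl and Casp1 are known targets of interferon. All 18 had a mean of at least 1 CPM and lay above 0 at both times with the deposited CPM (with median-ratio scaling some lay below 0, among them Stat2 and Irf9 at both times, named after their values were seen), 12 were called higher with no recovery and 11 after 7 days, where 33.5% and 32.7% of all genes were. The median was 1.41 and 1.33, beside 0.64 and 0.61 for all genes, or 0.73 and 0.68 with median-ratio scaling. Oasl2 had 30.2 and 35.4 CPM in the OGT-KO-labelled libraries and 6.49 and 3.5 CPM in the control-labelled libraries. Usp18 was at a log2 difference of 2.28 and 1.51, Irf8, which is also expressed in macrophages, at 2.00 and 2.50, and Ifit2 at 1.81 and 2.58. With the deposited CPM, Zbp1, at 1.17 and 0.98, and Casp1, at 1.33 and 1.20, lay below this list's median, and Mlkl above it. With median-ratio scaling Casp1, at 0.79 and 0.80, lay above the list's median, while Zbp1 stayed below it and Mlkl above.

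**Figure D4:**
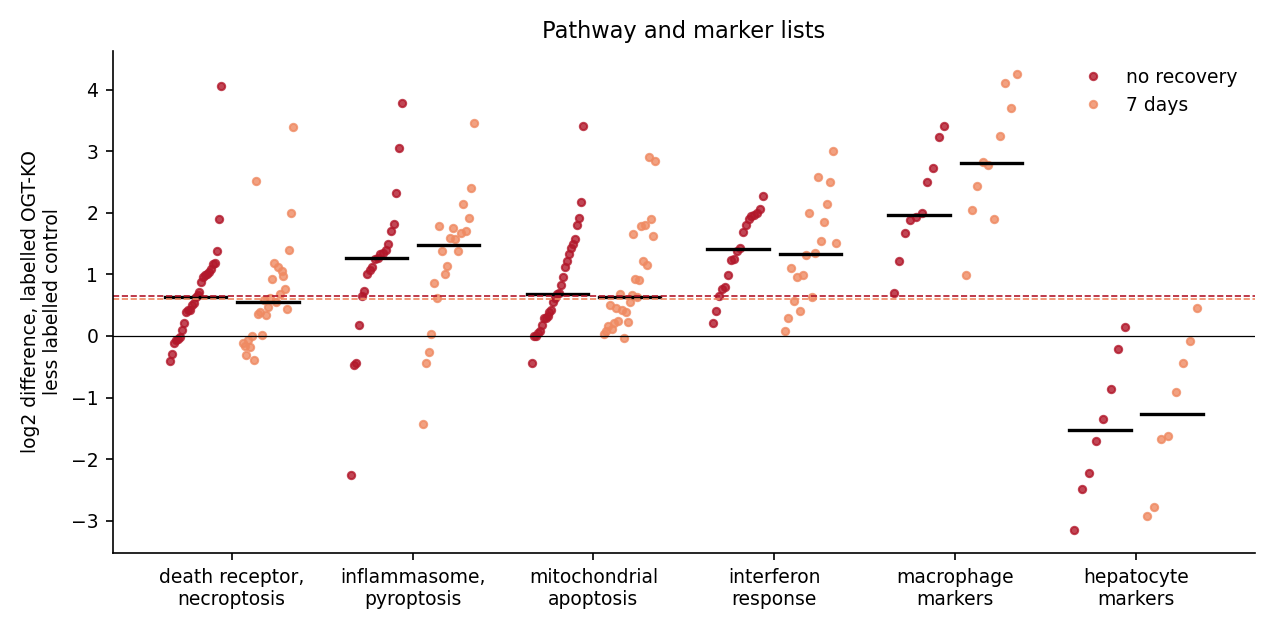
Difference of log2(CPM + 1) between the labels for each gene of 4 pathway lists and of macrophage and hepatocyte markers, with no recovery (dark) and after 7 days (light), genes in the same order in both. Black bars are list medians and dashed lines the background medians (0.64 and 0.61). The death receptor and mitochondrial lists centre on the background, the inflammasome, interferon and macrophage lists lie above it, and hepatocyte markers lie below 0 in the median.

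Markers of cell types also differed between the labels. Of 10 macrophage and monocyte markers, 9 were called higher in the OGT-KO-labelled library at each time, where 33.5% and 32.7% of all genes were, and none was at 0. Among them Ccr2, Cx3cr1 and Itgam were under 1 CPM in both control-labelled libraries, so they passed the filter only through the other label. The median log2 difference of the 10 was 1.97 and 2.80, and their summed level was 909 and 760 CPM in the OGT-KO-labelled libraries and 222 and 84.2 CPM in the control-labelled libraries, a ratio of 4.09 with no recovery and 9.02 after 7 days. Ripk3 had ratios of 3.72 and 9.54 in the same libraries. The sum of the listed lymphocyte markers had ratios of 4.94 and 9.52, and those of the other cell types are given below. Per 100 CPM of the macrophage and monocyte markers, Ripk3 had 0.535 to 0.657 CPM over all 4 libraries, a range of 1.23 times, the narrowest of the 9 members. The lowest of these values rests on 9 reads of Ripk3, so counting error alone is wider than this range. Casp1 had 0.397 to 0.892 CPM, a range of 2.25 times, and Mlkl 1.57 to 5.35 CPM, a range of 3.41 times, while the range was 15.7 times for Gsdmd. These ratios to the macrophage and monocyte marker sum were computed after the values were seen. No other marker sum was used in this way, and the part of macrophage RNA in any member's difference was not tested.

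The remaining marker sums are given in the same order, with no recovery and then 7 days, as ratios of the OGT-KO-labelled library to the control-labelled one. Neutrophil markers (4 genes) stood at 5.35 and 20.4, and the later ratio rests on a sum of 2.20 CPM in the control-labelled library. Endothelial markers (6 genes) stood at 1.99 and 2.21. Their median log2 difference was 0.96 and 0.76, beside 0.64 and 0.61 for all genes, and 0.26 and 0.10 with median-ratio scaling. The 7 lymphocyte markers in the table stood at 4.94 and 9.52, with Cd8a at 0 CPM in the control-labelled library after 7 days. These sums were led by Ptprc (33.8 of 42.8 CPM in the OGT-KO-labelled library with no recovery). Ptprc is not specific to lymphocytes, so the sums are not a measure of lymphocytes alone. Of the 7 genes, 2 had a mean of at least 1 CPM. Stellate cell and myofibroblast markers (6 genes) stood at 14.3 and 25.3, and their median log2 difference was 2.45 and 3.12. Their sums were led by Col1a1 in the OGT-KO-labelled libraries (875 and 1192 CPM). In the control-labelled libraries they were led by Reln (33.9 and 23.7 CPM), with Col1a1 at 21.0 and 16.5 CPM. Bile duct markers (5 genes) stood at 21.4 and 20.9, sums led by Spp1, with a median log2 difference of 3.58 and 3.96. Hepatocyte markers (8 genes) stood at 0.695 and 0.780, sums carried by Alb (41362 of 49955 CPM in the OGT-KO-labelled library with no recovery). Their median log2 difference was -1.52 and -1.27, and 5 and 4 of the 8 were called lower, where 4.6% and 3.5% of all genes were. Their part in the members' differences was not tested either.

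Genes with the most similar pattern over the 4 libraries were found by the distance between log2(CPM + 1) profiles, each centred on its mean, with the other members left aside. Mlkl was nearest to Tead1 (distance 0.04 on the log2 scale) and Slc12a8 (0.09), and Tead1 had 62.4 and 60.1 CPM in the OGT-KO-labelled libraries and 8.19 and 10.7 in the control-labelled libraries. Bcl2l11 was nearest to Mapk7 and Pde5a (both 0.09), Ripk3 to Cbfa2t3 (0.04) and Dchs1 (0.06), and Casp1 to Eps8l1 (0.07) and Vwf (0.10), the last an endothelial gene. Zbp1 was nearest to Exosc8 (0.04) and Sf3b3 (0.05), Fas to Spr (0.02) and Paf1 (0.04), and Casp8 to Fer (0.01) and Grb14 (0.03). Ripk1 was nearest to Vps13b and Selenof (both 0.02), and Gsdmd to Mterf3 (0.01) and Dipk1a (0.07). Between members, the closest were Casp8 and Ripk1 (0.27), Mlkl and Bcl2l11 (0.35) and Fas and Ripk1 (0.41). With 4 libraries many genes share a profile: 1226 genes lay within 0.25 of Ripk1 and 41 within 0.25 of Mlkl.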

How the data were processed

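Bulk mRNA-seq of mouse liver was used, with 4 libraries of pooled RNA. The authors deposited CPM values for 13903 genes under a name that refers to DESeq2 normalization, but each column sums to 1000000. All values (100% per library, within 0.01 read) were whole multiples of 1 read, so whole reads were recovered. The submitters' processing notes list STAR, DESeq2 and GRCm39, with no role; the counter, annotation and gene filter are not given in the sources used here. Columns were matched to samples by their descriptions.

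Members and lists were chosen with earlier results of these data known. Every member was named, with a set list of genes that bind or cut a member, list genes that had the 3 largest differences of their list, and the 2 nearest genes by profile. A pseudocount of 1, a mean of at least 1 CPM and a 2-fold limit were used. Intervals were exact Poisson (levels) and conditional Clopper-Pearson (ratios) at 95%, and cover counting error only. With 1 library per condition no replicate check exists. Coordinates come from GRCm38 references and apply to printed sequences and annotation only. Protein sequences were not used here. Alternatives were other scalings, pseudocounts, filters and limits, and an exact binomial test on reads. The steps were tested on simulated data. Python 3.11.15 with numpy 2.4.6, pandas 2.3.3, scipy 1.17.1 and matplotlib 3.10.9 was used.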

Additional observations from a re-analysis of the deposited data

Results flagged for a closer look

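Some members had differences of opposite sign in the 2 groups of a contrast. None of these differences between groups was tested, and with 1 library per condition each is 1 value against 1. Between the labels, Ripk1 was at a log2 difference of -0.047 with no recovery and 0.12 after 7 days. Between the time points, Bcl2l11 was at 0.27 in the control-labelled libraries and -0.33 in the OGT-KO-labelled libraries, Mlkl at 0.30 and -0.073, Fas at 0.058 and -0.31, and Ripk1 at -0.034 and 0.14. All of these lie within 2-fold.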

How the results depend on the processing

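No paired analysis was possible because each condition has 1 library. Of 79 recomputed counts of members, 64 stayed within 1.5 times. The cause of the other changes was not tested beyond what each setting does. Many of the 79 could not move. All 9 members passed the filter, so its removal changes no count. A count of 0 cannot rise under a stricter limit, filter or test. The 64 therefore does not measure how stable the results are. The counts of members called higher between the labels moved under several settings, given below. No called member changed sign under another scaling or pseudocount. Of 36 member differences, 6 changed sign with median-ratio and 5 with upper-quartile scaling, all of them in Fas, Casp8 and Ripk1, and 0 with either pseudocount.

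With no recovery, members called higher in the OGT-KO-labelled library numbered 5, and 3 with upper-quartile scaling, 2 with median-ratio scaling, 2 with a pseudocount of 10, 2 at 4-fold and 3 with a mean of at least 10 CPM, which leaves out Ripk3 and Casp1. After 7 days they numbered 4, and 2 with a pseudocount of 10, 1 at 4-fold and 2 with the higher mean; 1 member, Gsdmd, was called lower with median-ratio scaling. A pseudocount of 0.1 gave 2 members lower after recovery in the control-labelled libraries, and 1 member whose difference between labels changed 2-fold over time. With a 2-fold gap, 3 members had both OGT-KO-labelled libraries above the control-labelled ones and 0 below. Without that gap, members below numbered 2 with upper-quartile and 4 with median-ratio scaling, where no background share was computed.

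The background moves as well. Genes called higher and lower numbered 4352 and 597 with no recovery and 4241 and 455 after 7 days, 2296 and 1615, then 2655 and 1240, with median-ratio scaling, and 2794 and 1150, then 2982 and 869, with upper-quartile scaling. With a mean of at least 10 CPM, 2185 (24.4%) and 2050 (22.9%) of 8963 genes were called higher. The exact binomial test (Benjamini-Hochberg adjusted), a comparison of 2 libraries and never of conditions, gave an adjusted p under 0.05 for 12121 and 11929 of 13903 genes, and removed no member's call. Ripk3 and Casp1 are limited by depth, with 9 and 15 reads in the control-labelled library after 7 days.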
